A study of Mus musculus with 14 samples.

Results

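Microglia at rest carry a set of surface and secreted gene products that is in large part scarce in blood leucocytes, and 8 genes of this homoeostatic set were followed here across all libraries of the series. They were chosen by name: Tmem119, Cx3cr1, Gpr34, Siglech, Fcrls, Serinc3, Olfml3 and Sparc. All 8 were among the 14329 genes of the deposited values, and all 8 passed the filter of at least 10 reads in at least 7 of 14 libraries, which left 12645 genes for the tests. Bulk RNA-seq was made from microglia gated as CD45low, CD11b+ and CX3CR1+, 2000 cells to a sample, which had been sorted from the dorsal lumbar spinal cord of 6-month-old mice at day 5 after serum transfer (ST). Mice received either K/BxN arthritogenic serum, which passes on a joint inflammation driven by autoantibodies, or control serum. TASTPM mice are heterozygous for 2 human transgenes, of which 1 is APP with the Swedish mutation, both under the Thy-1 promoter, which is active in neurones, so that the transgenes are not meant to be expressed by the microglia measured. WT mice shared the C57BL/6 background without the transgenes, and males and females were used. There were 3 libraries each of WT Control ST and TASTPM Control ST, and 4 each of WT K/BxN ST and TASTPM K/BxN ST. Libraries are numbered as the labels do in TASTPM K/BxN ST and otherwise by their place in the deposited values, which pairs nothing across groups.

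A homoeostatic microglial programme is maintained in the healthy central nervous system by local signals such as TGF-beta and CSF1R ligands, and by transcription factors that include PU.1, an ETS factor of all myeloid cells, and MEF2 proteins. Its surface members sense neurones and damaged tissue, whereas its secreted members enter the matrix around the cell. Loss of these transcripts is a familiar sign of microglial activation. Not all of them are private to microglia: Cx3cr1 is also carried by monocytes, Siglech by plasmacytoid dendritic cells, Sparc by endothelium and astrocytes, and Serinc3 by many cell types. The CX3CR1 protein was itself used in the sort, so that the Cx3cr1 transcript describes cells that were gated on its product.

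Members were placed on the GRCm39 genome with the GENCODE M39 annotation by their Ensembl identifiers. Tmem119 (ENSMUSG00000054675) lies at chr5:113931781-113938577, Cx3cr1 (ENSMUSG00000052336) at chr9:119877749-119898945 and Gpr34 (ENSMUSG00000040229) at chrX:13489625-13507116, within the span of Cask on the other strand. Siglech (ENSMUSG00000051504) lies at chr7:55417926-55429195, Fcrls (ENSMUSG00000015852, named Fcrl2 in that annotation) at chr3:87156616-87181827 and Serinc3 (ENSMUSG00000017707) at chr2:163444008-163487086. Olfml3 (ENSMUSG00000027848) lies at chr3:103629538-103645322 and Sparc (ENSMUSG00000018593) at chr11:55285317-55314067. Serinc3 shares 385 exonic bases with Ttpal, a neighbour on the opposite strand, and 169 with 0610039K10Rik. Cx3cr1 shares 78 with Gm33858 and Olfml3 shares 124 with Gm65812, so that reads over these stretches cannot be told apart without strand. The other 5 members share no exonic base with another gene.

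Promoter sequence from RefSeq was at hand for 6 members. As a description, it is shown for the 3 whose 300 bases around the RefSeq start held letters of a searched motif. Whether these letters bear on the levels measured here was not tested. The table was made on GRCm38.p6, and each sequence was found unchanged at 1 place of GRCm39, whose coordinates are given. Capitals mark the match, and each run is read 5′ to 3′ on the strand of the gene. The runs of Fcrls and Cx3cr1 end just before the RefSeq start, and that of Siglech goes 2 bases beyond. Fcrls is shown at chr3:87170832-87171081 on the minus strand and Siglech at chr7:55417682-55417933 on the plus strand. Cx3cr1 is shown at chr9:119897363-119897612 on the minus strand. The windows of Fcrls and Cx3cr1 lie inside the GENCODE spans given above, so that distances here refer to the RefSeq start and not to the outermost end.
Fcrls: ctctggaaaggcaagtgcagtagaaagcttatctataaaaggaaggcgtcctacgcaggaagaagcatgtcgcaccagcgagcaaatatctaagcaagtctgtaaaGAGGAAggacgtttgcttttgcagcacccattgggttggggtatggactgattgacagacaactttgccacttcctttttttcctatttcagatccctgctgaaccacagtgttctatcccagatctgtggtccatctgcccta
Siglech: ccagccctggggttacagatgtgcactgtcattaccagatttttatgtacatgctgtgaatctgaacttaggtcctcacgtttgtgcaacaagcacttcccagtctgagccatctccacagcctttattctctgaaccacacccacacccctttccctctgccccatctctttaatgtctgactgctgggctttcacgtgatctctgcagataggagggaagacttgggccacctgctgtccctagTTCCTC
Cx3cr1: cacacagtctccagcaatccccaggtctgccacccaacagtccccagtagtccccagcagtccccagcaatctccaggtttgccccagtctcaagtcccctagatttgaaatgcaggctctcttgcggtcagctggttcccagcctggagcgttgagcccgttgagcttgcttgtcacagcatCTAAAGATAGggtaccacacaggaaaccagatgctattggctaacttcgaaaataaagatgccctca
The 6-letter core of PU.1 sites, GAGGAA, was searched on both strands. It began 144 bases before the RefSeq start of Fcrls and, as its reverse complement, 4 bases before that of Siglech. These letters occurred in 28.3% of all 32851 promoters of the same length. The letters searched for MEF2, CTA and TAG set apart by any 4 bases, read alike on both strands. They began 67 bases before the RefSeq start of Cx3cr1 and occurred in 3.69% of promoters. Because the 4 inner bases were left free, the match in Cx3cr1 is not shown to be a MEF2 site. Neither set of letters was found in the windows of Serinc3, Olfml3 and Sparc, and no 2 matches overlapped.

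Depth was between 14223015 and 20239175 reads on genes per library, and each member was covered by at least 9597 reads in every library, so that counting error was small beside the spread between libraries. The sorted cells carried the defining microglial marker P2ry12, at 34656 to 166138 normalized counts in the 14 libraries. However, 4 K/BxN ST libraries stood apart. In TASTPM K/BxN ST libraries 1 and 2 and WT K/BxN ST libraries 1 and 2, the 6 classical monocyte markers, all of them in the table, summed to between 68402 and 127759 normalized counts, against 18.4 to 143 in the other 10 libraries. Ly6c2, a surface antigen of classical monocytes, was at 12898 to 29133 in these 4 and at most at 17.8 in the others. The 6 neutrophil markers summed to 181356 or more in 3 of the 4, to 281 in WT K/BxN ST library 2, and to at most 2752 elsewhere. S100a9 of neutrophils was at 38454, 48803 and 51733 in these 3 libraries and at 51.4 in WT K/BxN ST library 2. The 6 markers of border-associated macrophages summed to 11489 to 35137 in the 4 libraries and to at most 1846 elsewhere, while Mrc1 alone was at 294 to 942 in the 4 and reached 599 in TASTPM K/BxN ST library 3. Non-classical monocyte markers (5 of 5 in the table) summed to 1687 to 2976 against 436.6 to 859. Astrocyte markers (5 genes) summed to at most 2267, oligodendrocyte markers (4 of 5 in the table) to at most 4785, and endothelial (2 of 6), plasmacytoid dendritic cell (2 of 6) and neuronal markers (1 of 4) to at most 233, 185 and 291. By the study's methods, Ly6C+ and CCR2+ cells were to be left out by the gate. The 4 libraries are hereafter called monocyte-rich, and the main differences after K/BxN ST are also given without them.

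The 8 genes together took 4.46 to 5.27% of all reads in the 10 other libraries. In the monocyte-rich libraries they took 1.62% and 3.24% (TASTPM) and 2.36% and 3.37% (WT). Per kilobase of exon, in WT Control ST, Tmem119 was highest at 40328 ± 2836 normalized counts (SD, n = 3), followed by Serinc3 at 36552 ± 687, Cx3cr1 at 34245 ± 5817, Gpr34 at 28309 ± 1210 and Sparc at 25737 ± 2934. Olfml3 at 15685 ± 1100, Fcrls at 11086 ± 1532 and Siglech at 6981 ± 405 were lower. Neighbours from Serinc3 to Sparc in this order overlapped when 1 SD was taken around each mean, whereas Tmem119 and Serinc3, and Sparc, Olfml3, Fcrls and Siglech, did not. The same order was found in WT K/BxN ST and TASTPM Control ST, and in TASTPM K/BxN ST only Gpr34 and Sparc changed places.

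The first question was what K/BxN ST did to these transcripts in WT and in TASTPM mice. None of the 8 passed the threshold of an absolute log2 fold change above 1 with an adjusted p under 0.05 (limma on log2 of the normalized count plus 1) in either genotype. All 8 had a lower mean after K/BxN ST in both, with a median log2 fold change of -0.54 in WT and -0.51 in TASTPM, against 0.06 and 0.01 over all tested genes. When every library was instead scaled to 20 other homoeostatic genes, which shifted the median of all genes to 0.50 and 0.48, the members' medians were -0.09 and -0.03 and Tmem119, Cx3cr1 and Serinc3 turned to slightly higher in both genotypes. Without the monocyte-rich libraries, the medians were -0.12 in WT and 0.02 in TASTPM, with 7 of 8 and 3 of 8 members lower. The limma test called 1 gene in WT (0.00791%) and none in TASTPM (0%) over all tested genes, with 902 and 533 genes at an unadjusted p under 0.05, none of them a member. edgeR called 0 genes in each, and DESeq2 127 and 16, again with no member.

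**Figure D1:**
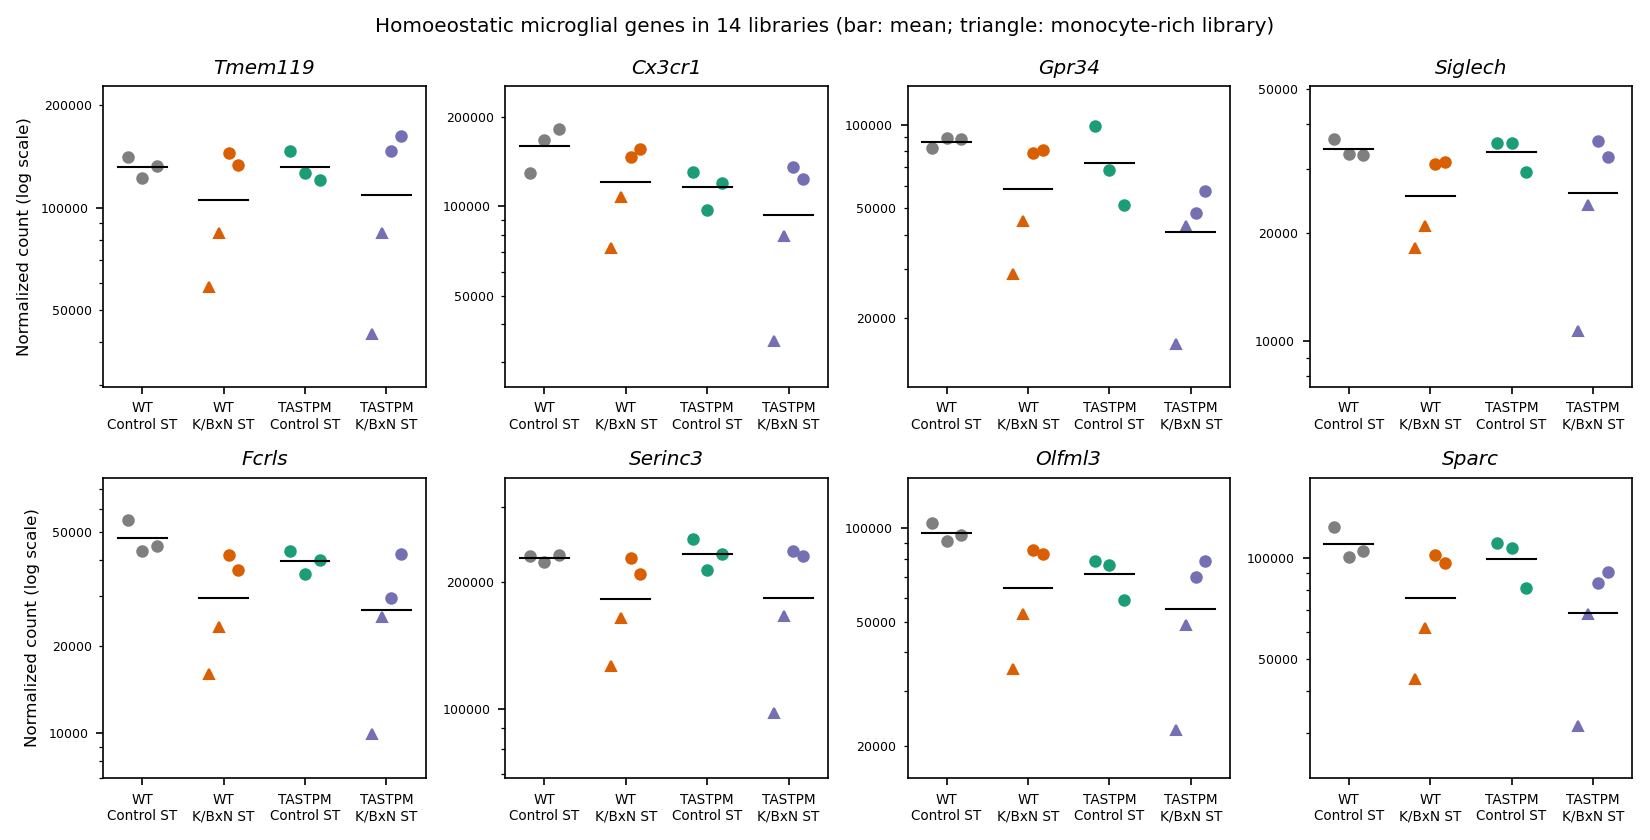
Normalized counts of each gene (vertical axis, log scale) in the 14 libraries by group, with the group mean as a bar and the 4 monocyte-rich libraries as triangles. In both K/BxN ST groups the triangles lie below the circles for all 8 genes, and the circles lie near or within the range of the Control ST libraries for most of them.

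Among the receptors, Gpr34, a G protein-coupled receptor for lysophosphatidylserine, showed the widest span, 6.13-fold between its lowest and highest library. In WT it was at 82616, 89538 and 88398 normalized counts under Control ST and at 28796, 44760, 78732 and 80946 after K/BxN ST. In TASTPM, Gpr34 was at 98559, 68660 and 50993 under Control ST and at 16072, 42911, 47796 and 57325 after K/BxN ST. All 4 WT K/BxN ST libraries were thus below all 3 WT Control ST libraries, by little in libraries 3 and 4, whereas in TASTPM 3 of 4 lay below every Control ST library. The log2 fold change was -0.70 ± 0.44 (SE, n = 4 and 3) in WT with an adjusted p of 0.758 by limma, and -0.92 ± 0.44 in TASTPM with an adjusted p of 0.964 by limma, the lowest unadjusted p of any member (0.0522). Without the monocyte-rich libraries the values were -0.12 and -0.42.

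Cx3cr1 encodes the receptor for fractalkine, a chemokine presented by neurones. It was at 129339, 167309 and 181794 in WT Control ST and at 72232, 107725, 146581 and 155865 in WT K/BxN ST. In TASTPM, it was at 130709, 97396 and 119853 under Control ST and at 35235, 79648, 135846 and 124124 after K/BxN ST. The monocyte-rich libraries were the low ones in each group and the other 2 overlapped with Control ST in both genotypes. The log2 fold changes were -0.45 (95% interval -1.34 to 0.44) and -0.47 (-1.37 to 0.42), and without the monocyte-rich libraries -0.06 in WT and 0.17 in TASTPM.

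Tmem119, a membrane protein that marks microglia among brain myeloid cells, was at 140835, 122314 and 132225 in WT Control ST and at 58489, 84020, 144647 and 133298 in WT K/BxN ST. In TASTPM, Tmem119 was at 147011, 126035 and 120565 under Control ST and at 42292, 84054, 146688 and 162963 after K/BxN ST, so that its highest value in the series and its lowest came from the same group. Libraries 3 and 4 of both K/BxN ST groups were at or above the Control ST mean. The log2 fold changes of -0.42 and -0.45 became 0.08 and 0.24 without the monocyte-rich libraries.

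Siglech is a sialic acid-binding lectin that signals through the adaptor encoded by Tyrobp, Fcrls is a scavenger-like relative of the Fc receptors, and Serinc3 is a multi-pass membrane protein. Fcrls was at 55011, 42965 and 44470 in WT Control ST and at 16000, 23315, 41506 and 36760 in WT K/BxN ST, which did not overlap. TASTPM libraries were at 42782, 35607 and 39896 under Control ST and at 9980, 25294, 29523 and 41905 after K/BxN ST, with library 4 within the Control ST range. Its log2 fold changes were -0.78 ± 0.41 in WT, the largest in size of the members there, and -0.73 ± 0.41 in TASTPM.

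Siglech was at 36450, 33160 and 32886 in WT Control ST and at 18109, 20855, 31062 and 31374 in WT K/BxN ST. In TASTPM, it was at 35448, 35370 and 29416 against 10698, 23929, 35933 and 32405. The WT groups did not overlap and the TASTPM groups did. Serinc3 varied least, 2.59-fold over all libraries, between 223276 and 230870 in WT Control ST and between 126204 and 227231 in WT K/BxN ST. TASTPM libraries were at 213207 to 252415 under Control ST and 97633 to 236258 after K/BxN ST. Its log2 fold changes, -0.37 ± 0.34 and -0.43 ± 0.34, were the smallest in size of the members in both genotypes.

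Of the secreted members, Olfml3, an olfactomedin-domain glycoprotein, was at 104132, 90828 and 95181 in WT Control ST and at 35299, 53144, 85215 and 82961 in WT K/BxN ST, again without overlap. TASTPM libraries were at 78399, 76547 and 59080 under Control ST and at 22513, 49153, 69676 and 78483 after K/BxN ST, where the groups overlapped. Sparc, a collagen-binding matricellular protein, was at 100270 to 123923 in WT Control ST and 43704 to 102189 in WT K/BxN ST, with 3 of 4 K/BxN ST libraries below every Control ST library. In TASTPM, Sparc was at 81059 to 110536 and 31489 to 90945. The log2 fold changes of Olfml3 were -0.68 and -0.51 and those of Sparc -0.61 and -0.63. Without the monocyte-rich libraries, the values of Fcrls, Siglech, Serinc3, Olfml3 and Sparc were between -0.27 (Fcrls) and -0.07 (Serinc3) in WT, all still lower. In TASTPM they were between -0.17 (Sparc) and 0.06 (Olfml3), with Fcrls at -0.16.

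In WT, 4 of 8 members (Gpr34, Siglech, Fcrls and Olfml3) had every K/BxN ST library below every Control ST library, as did 3.71% of all tested genes. In TASTPM none did, against 2.74% of all tested genes. A two-sided exact permutation test cannot go below 0.0571 with 4 against 3 libraries. It gave 0.0571 for these 4 members and up to 0.514 for the rest in WT, and 0.114 to 0.514 in TASTPM. The 95% intervals of all members included 0 in both genotypes and reached -1.66 in WT (Fcrls) and -1.85 in TASTPM (Gpr34), so that lower levels by more than 1 log2 unit lay inside the intervals of all 8. Leaving out TASTPM K/BxN ST library 1 alone brought the TASTPM median from -0.51 to -0.15, and leaving out WT K/BxN ST library 1 brought the WT median from -0.54 to -0.35.

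**Figure D2:**
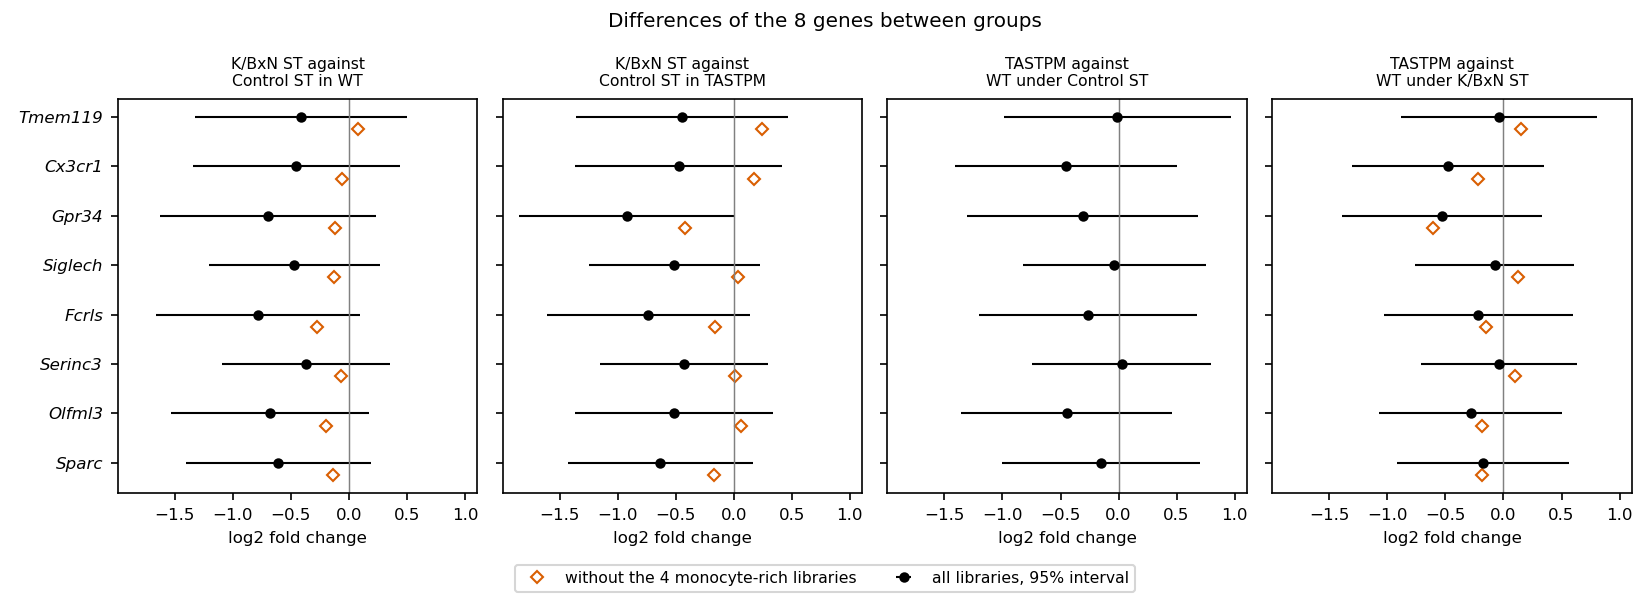
The log2 fold change of each gene (horizontal axis) in 4 comparisons, with filled points and 95% intervals for all libraries and open diamonds for the fit without the monocyte-rich libraries, which does not alter the comparison under Control ST. All 32 intervals include 0, and the diamonds of both K/BxN ST comparisons lie to the right of the points.

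The level of the 8 genes was set beside the monocyte markers and beside the rest of the homoeostatic programme. The geometric mean of the members was 74646 to 98660 normalized counts in the 10 other libraries. It was 25468 and 55958 in the monocyte-rich TASTPM libraries and 40231 and 56644 in the monocyte-rich WT libraries. The 20 other homoeostatic genes, fixed as a list with earlier results of these data known, varied likewise, and the log2 ratio of the members to them stayed between 1.5 and 1.75 in all 14 libraries. This ratio was 1.5, 1.70, 1.58 and 1.54 in the monocyte-rich libraries. With the summed monocyte and neutrophil markers as a covariate, the median of the members was -0.16 in WT and -0.05 in TASTPM. In bulk samples, fewer microglia in a library and less RNA of these genes per microglial cell cannot be told apart, and the part of monocyte and neutrophil RNA in the differences was not tested further.

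**Figure D3:**
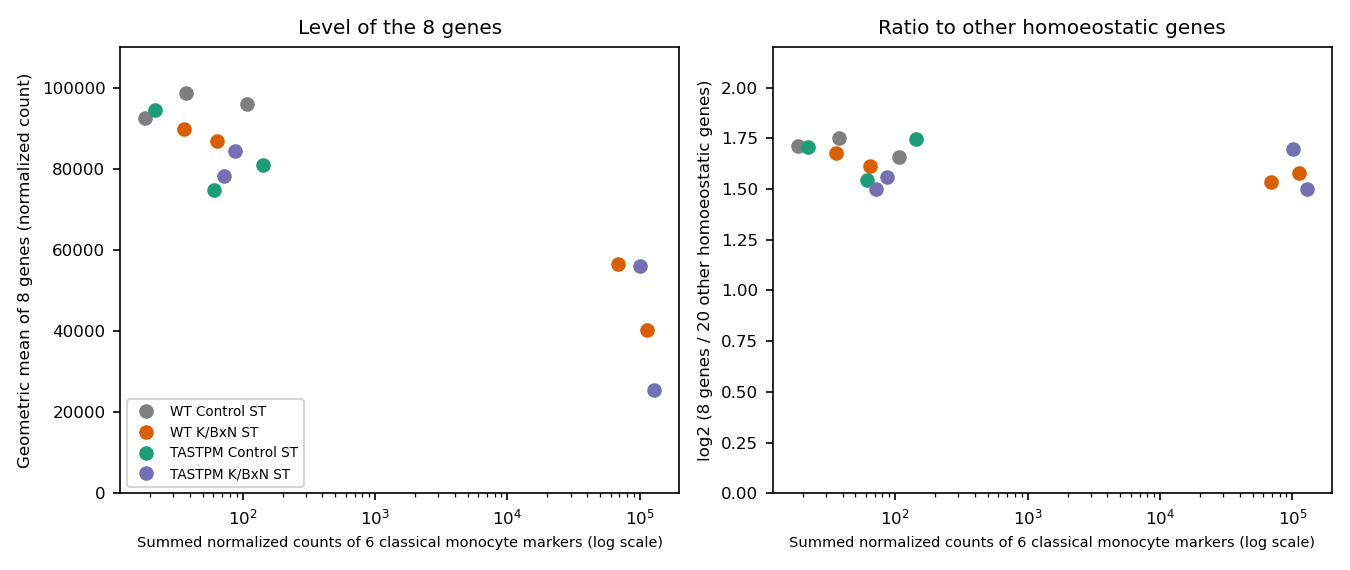
Each point is 1 library. The summed normalized counts of 6 classical monocyte markers (horizontal axis, log scale) are set against the geometric mean of the 8 genes (left, normalized counts) and against the log2 ratio of these to 20 other homoeostatic genes (right). The 4 libraries at the right of each panel lie at 25468 to 56644 on the left and at 1.5 to 1.70 on the right, within the range of the others.

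Whether the response to K/BxN ST differed between genotypes was asked with the interaction of genotype and serum. No member was called, and none of the tested genes was (0%, with 385 genes at an unadjusted p under 0.05, edgeR calling 0 and DESeq2 12). The members' differences between the TASTPM and the WT fold change ran from -0.22 for Gpr34 to 0.17 for Olfml3, with a median of -0.03 and adjusted p of 0.999 by limma. Intervals were wide, from -1.54 to 1.09 for Gpr34. Without the monocyte-rich libraries the median was 0.14, and without TASTPM K/BxN ST library 1 it was 0.35.

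The genotypes were compared first under Control ST, where no library was monocyte-rich. No gene was called by limma (0%, with 704 genes at an unadjusted p under 0.05, edgeR calling 0 and DESeq2 41, none a member). The largest differences among the members were those of Cx3cr1, -0.46 ± 0.45 (SE, n = 3 and 3), and Olfml3, -0.45 ± 0.43, each with an adjusted p of 0.976 by limma. Serinc3 at 0.03 and Tmem119 at -0.01 were the nearest to 0, and the median was -0.21 against 0.04 over all tested genes. Scaling to the other homoeostatic genes shifted the all-gene median to 0.20 and brought that of the members to -0.04, and without TASTPM Control ST library 3 it was also -0.04.

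In the case of Olfml3, all 3 TASTPM libraries (59080 to 78399) were below all 3 WT libraries (90828 to 104132). Fcrls was likewise separated, although narrowly, at 35607 to 42782 against 42965 to 55011. These 2 of 8 members compare with 4.71% of all tested genes. The exact permutation p was 0.1 for both, which is the smallest that 3 against 3 libraries can give, and the other 6 members overlapped.

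Under K/BxN ST, TASTPM and WT overlapped for all 8 members, and 0.672% of tested genes had every TASTPM library below every WT library. Limma called no gene (0%, with 241 at an unadjusted p under 0.05, edgeR and DESeq2 calling 0). Gpr34 (-0.53 ± 0.40) and Cx3cr1 (-0.48 ± 0.39) had the lowest values, the other 6 lay between -0.28 and -0.04, and the adjusted p of all 8 was 1.00 by limma. The exact permutation p was 0.429 or above for every member. Without the monocyte-rich libraries the values were -0.61 for Gpr34 and -0.22 for Cx3cr1, and the median was -0.17. In that fit 1 member had an unadjusted p under 0.05 by limma, and none was called.

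The share of each gene within the set was taken as the log2 ratio of a member to the geometric mean of all 8 in the same library. On this scale each member spanned 0.30 (Sparc) to 0.77 (Gpr34) log2 units over the 14 libraries, against 1.37 to 2.62 before the ratio was taken. The shares sum to 0 in each library, so that they are not independent of one another. There were 32 exact permutation tests, 8 members in 4 comparisons, with a lowest adjusted p of 0.320, and with so few libraries none could have passed after adjustment: the smallest p before it is 0.0571 for 4 against 3 libraries, 0.1 for 3 against 3 and 0.0286 for 4 against 4.

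Tmem119 held 0.46 ± 0.05 in WT Control ST, 0.60 ± 0.06 in WT K/BxN ST, 0.66 ± 0.03 in TASTPM Control ST and 0.79 ± 0.17 in TASTPM K/BxN ST (SD, n = 3, 4, 3 and 4). All TASTPM Control ST libraries (0.64 to 0.69) and all WT K/BxN ST libraries (0.54 to 0.69) were above the WT Control ST libraries (0.40 to 0.51), with exact p of 0.1 and 0.0571, each the smallest possible. Its 2 highest shares, 0.91 and 0.95, were those of TASTPM K/BxN ST libraries 3 and 4, which are not monocyte-rich. After K/BxN ST its share differed by 0.14 in both genotypes, and by 0.19 in WT and 0.27 in TASTPM without the monocyte-rich libraries. Gpr34 ran the other way, with -0.14 ± 0.11, -0.28 ± 0.17, -0.24 ± 0.31 and -0.58 ± 0.15 in the same order of groups. Its difference after K/BxN ST was -0.14 in WT and -0.34 in TASTPM, and -0.0063 and -0.39 without the monocyte-rich libraries. TASTPM K/BxN ST was lower than WT K/BxN ST by -0.30 with an exact p of 0.0571, although the ranges of -0.71 to -0.38 and -0.48 to -0.10 overlapped, and without the monocyte-rich libraries the difference was -0.49.

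Olfml3 had a share of 0.01 ± 0.06 in WT Control ST, above every library of WT K/BxN ST (-0.11 ± 0.06, exact p 0.0571) and of TASTPM Control ST (-0.23 ± 0.13, exact p 0.1). The share of Fcrls was -1.02 ± 0.15 in WT Control ST and -1.24 ± 0.09 in WT K/BxN ST, also without overlap. Without the monocyte-rich libraries, the WT differences of Olfml3 and Fcrls after K/BxN ST, -0.12 and -0.22, were -0.09 and -0.16. Serinc3 and Siglech took a larger share in all TASTPM Control ST libraries than in any WT Control ST library, by 0.23 and 0.17. The share of Serinc3 was 1.94 and 1.57 in the monocyte-rich TASTPM libraries and 1.65 and 1.54 in those of WT, against 1.22 to 1.64 in the other 10. Cx3cr1 took less in TASTPM, by -0.25 under either serum, with groups that overlapped, and by -0.10 under K/BxN ST without the monocyte-rich libraries. The share of Sparc differed by at most 0.06 in size between the groups of any comparison over all libraries, and by -0.14 for K/BxN ST in TASTPM without the monocyte-rich ones.

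**Figure D4:**
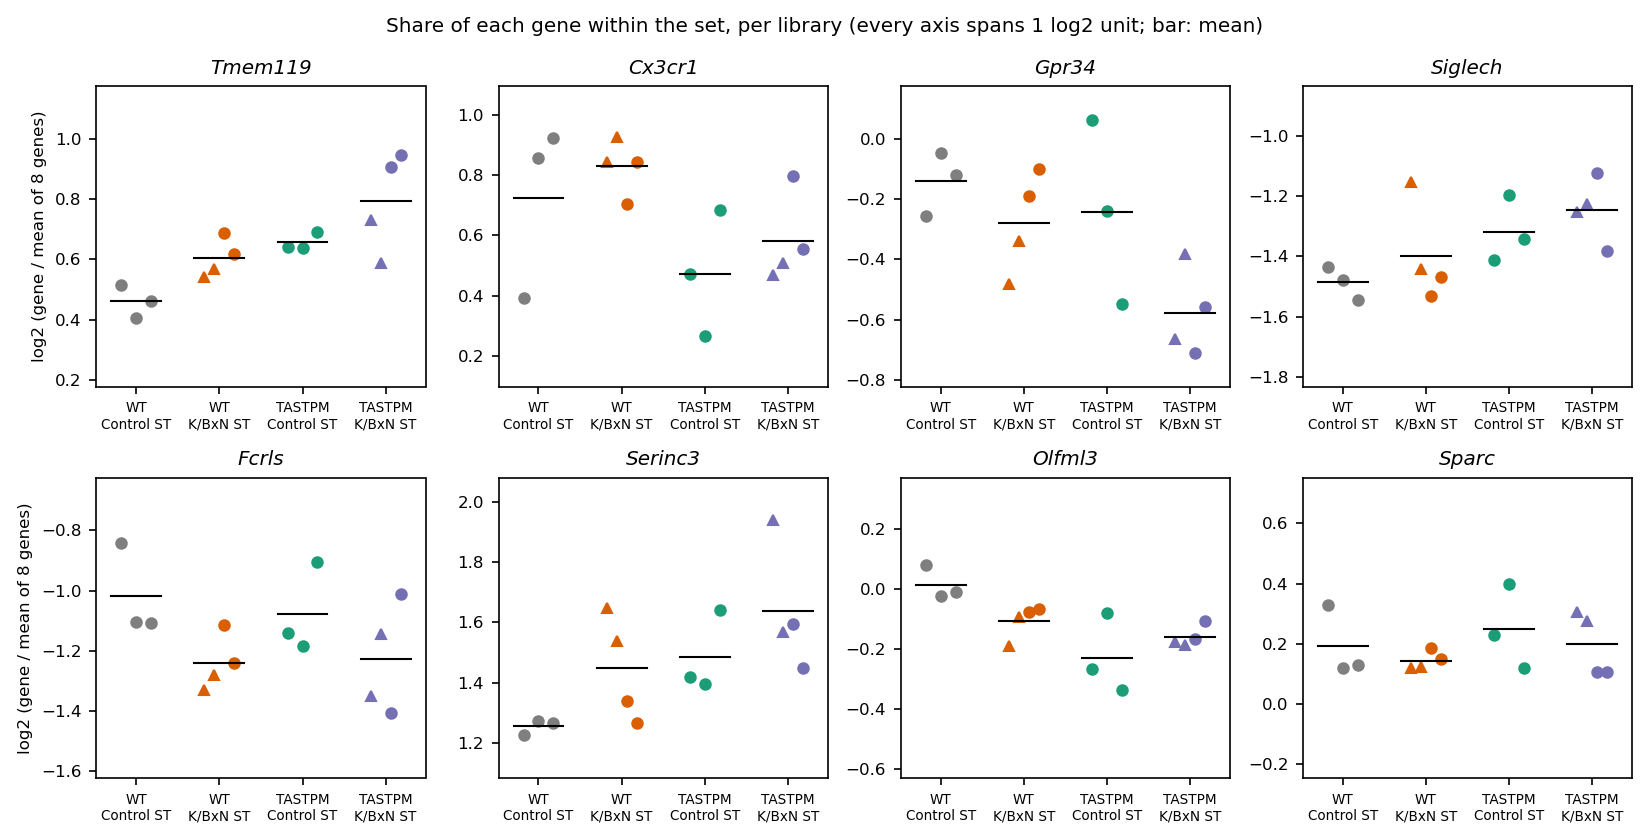
The log2 ratio of each gene to the geometric mean of the 8 (vertical axis, spanning 1 log2 unit in every panel) by library and group, with group means as bars and the monocyte-rich libraries as triangles. Tmem119 is lowest in WT Control ST (0.40 to 0.51) and Gpr34 is lowest in TASTPM K/BxN ST (-0.71 to -0.38).

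Genes outside the set whose profile was most like the mean profile of the 8 were sought over the 14 libraries by Pearson r, as a description. Among them were Serpine2 (r = 0.99), F11r, Lpcat2, Bin1, P2ry12, Slc2a5 and Ptgs1 (down to 0.98). P2ry12, the ADP receptor of microglial processes, is in the list of other homoeostatic genes, as are Lpcat2 and Slc2a5. In the 10 libraries that were not monocyte-rich, r was 0.93 for Serpine2, 0.91 for F11r and Lpcat2, 0.89 for P2ry12 and 0.58 to 0.70 for the other 3. The 14 points share 4 monocyte-rich libraries that are low for every one of these genes.

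Each member had its own nearest gene. That of Gpr34 was P2ry12, with r = 0.99 over 14 and 0.97 over 10 libraries, and that of Cx3cr1 was P2ry13, another nucleotide receptor, with 0.98 and 0.94. Selplg was nearest to Tmem119 (0.99 and 0.80) and Serinc3 (0.98 and 0.64), Cd81 to Siglech (0.97 and 0.74) and Sparc (0.99 and 0.82), and Serpine2 to Olfml3 (0.97 and 0.77) and Fcrls (0.99 and 0.86). Among the members themselves, the 28 pairs had r of 0.87 to 0.98 over 14 libraries. Over the 10 libraries without the monocyte-rich ones the pairs ran from -0.23 to 0.81 with a median of 0.20.

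The other genes of the programme, the signalling partners and the relatives of the members were described by the same fits, as lists chosen with earlier results known. Of the 20 other homoeostatic genes, all were tested, none was called and all 20 had lower means after K/BxN ST in both genotypes, with medians of -0.50 in WT and -0.48 in TASTPM that were close to those of the 8 members. Once the monocyte-rich libraries were left out, 13 of 20 were lower in WT and 6 of 20 in TASTPM, with medians of -0.07 and 0.17. P2ry12 was at -0.60 in WT with an adjusted p of 0.764 by limma, and at -0.18 without the monocyte-rich libraries. P2ry12 and Upk1b had the smallest p in TASTPM, at -0.78 and -0.90 with adjusted p of 0.964 by limma, and at -0.26 and -0.52 without the monocyte-rich libraries. Under Control ST, P2ry13 was at -0.68 in TASTPM against WT, with an adjusted p of 0.905 by limma, and under K/BxN ST Upk1b was at -0.60 and P2ry13 at -0.51, or -0.71 and -0.29 without the monocyte-rich libraries.

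Of 14 partners, 12 were tested and none was called. This list holds the fractalkine ligand Cx3cl1 with the sheddases Adam10 and Adam17, the adaptors Tyrobp and Hcst with Syk and Plcg2, G protein subunits with Arrb2, and enzymes that make or break lysophosphatidylserine. Their medians were 0.08 in WT and 0.10 in TASTPM after K/BxN ST, where the members were at -0.54 and -0.51. The partners' medians were -0.08 and 0.14 without the monocyte-rich libraries. Gnb1, a G protein subunit, was at 0.42 ± 0.25 and Adam17 at -0.41 in WT, whereas Plcg2 was at 0.32 ± 0.23 and Gnb1 at 0.27 in TASTPM, with adjusted p of 0.734 to 0.964 by limma. In the fit without the monocyte-rich libraries, Gnb1 was at 0.11 and Adam17 at -0.07 in WT, and Plcg2 at 0.52 and Gnb1 at -0.10 in TASTPM. Adam17 was at -0.45 and -0.32 in TASTPM against WT under Control ST and K/BxN ST, the latter -0.20 without the monocyte-rich libraries. Cx3cl1 was at 118 normalized counts or less in every library.

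Of 29 relatives, 16 were tested and none was called, with medians of -0.23 and -0.27 after K/BxN ST, and of -0.02 and 0.10 without the monocyte-rich libraries. At unadjusted p under 0.05, 1 was higher and 2 were lower in WT, and 3 were lower in TASTPM. Fcrlb was at 3.10 ± 1.31 in WT on values of at most 68.1 normalized counts, and Olfml2b at -0.76, each with an adjusted p of 0.684 by limma. Without the monocyte-rich libraries, Fcrlb was at 2.70 and Olfml2b at -0.42. Fcrl1 (-0.79) and Mag (-1.22) had the smallest p in TASTPM, with adjusted p of 0.964 by limma, and were at -0.61 and -1.25 without the monocyte-rich libraries. Under Control ST, Fcrl1 was at 0.80 ± 0.37 in TASTPM against WT, with an adjusted p of 0.883 by limma.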

How the data were processed

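Microglia of 14 samples were measured by bulk RNA-seq. The authors amplified cDNA with SMART-Seq v4, aligned reads with HISAT2 2.1 to GRCm39 and counted them per gene with featureCounts 1.5.2. Per gene and library, the authors deposited a normalized signal (reads over a factor of that library, in the manner of DESeq2), from which whole reads were regained for 100% of values (within 0.1 read). Of 14336 entries, 7 identical repeats were dropped. Groups were taken from the header above each column. Depth was 14223015 to 20239175 reads on genes.

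Main tests used limma 3.58.1 (R 4.3.3) with an intensity trend on log2 of the value plus 1, over the 12645 genes that reached 10 reads in 7 or more libraries, in 1 fit over 4 groups with Benjamini-Hochberg adjustment. edgeR 4.0.16 and DESeq2 1.42.0 ran on the whole reads as alternatives. In counts simulated for the WT serum comparison, with 200 of 12645 genes changed by 3 log2 units, limma recovered 66%, edgeR 64% and DESeq2 77%, with 8, 5 and 58 false calls. The 200 genes were drawn at random and changed by more than any member did. These shares therefore do not tell how often a member would be called. Exact permutation tests (scipy 1.17.1) were two-sided. The study's methods take individual mice as the biological replicates, which the labels do not state.

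The members and lists were chosen with earlier results of these data known. Named genes are the members, the 8 genes most like their mean profile and the nearest gene of each member by Pearson r, at most 2 genes of each list by smallest p in a comparison, and Ly6c2, S100a9, Mrc1 and P2ry12 as reference markers; some genes that this rule names are not reported here. The exclusion of the 4 monocyte-rich libraries (classical monocyte markers summing to over 10 times the highest Control ST library) was added after the data were seen. Protein sequences were not used here.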

Additional observations from a re-analysis of the deposited data

How the results depend on the processing

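No member was called under any alternative. Median log2 fold changes ran, as each library was left out, from -0.69 to -0.35 (K/BxN ST in WT), -0.72 to -0.15 (K/BxN ST in TASTPM), -0.24 to 0.35 (interaction), -0.28 to -0.04 (genotype under Control ST) and -0.44 to 0.18 (genotype under K/BxN ST). Within K/BxN ST against Control ST, leaving out any 1 library turned no member's sign. Of 960 values of single members under all alternatives, 108 had the opposite sign to that reported, and the cause was not tested. Scaled to the other homoeostatic genes, these were Tmem119 0.037, Cx3cr1 0.0015 and Serinc3 0.087 in WT, Tmem119 0.034, Cx3cr1 0.0059 and Serinc3 0.049 in TASTPM, Cx3cr1 0.0044 and Sparc 0.00099 for the interaction, Siglech 0.13, Sparc 0.016 and Tmem119 0.16 for genotype under Control ST, and Serinc3 0.15, Siglech 0.12, Sparc 0.017 and Tmem119 0.15 under K/BxN ST. Without the 4 monocyte-rich libraries they were Tmem119 0.078 in WT, Tmem119 0.24, Cx3cr1 0.17, Siglech 0.036, Olfml3 0.063 and Serinc3 0.0078 in TASTPM, Cx3cr1 0.24, Serinc3 0.076, Siglech 0.16 and Tmem119 0.16 for the interaction, and Serinc3 0.10, Siglech 0.13 and Tmem119 0.16 for genotype under K/BxN ST. With blood markers as a covariate they were Tmem119 0.081 in WT, Tmem119 0.16, Cx3cr1 0.055 and Olfml3 0.031 in TASTPM, Cx3cr1 0.076, Serinc3 0.0082, Siglech 0.045, Sparc 0.064 and Tmem119 0.084 for the interaction, and Serinc3 -0.030 for genotype under Control ST. By edgeR they were Cx3cr1 0.082, Siglech 0.041 and Tmem119 0.047 for the interaction, and Siglech 0.012 and Tmem119 0.044 for genotype under K/BxN ST. By DESeq2 they were Cx3cr1 0.093, Siglech 0.052 and Tmem119 0.057 for the interaction, and Serinc3 0.0027, Siglech 0.016 and Tmem119 0.047 for genotype under K/BxN ST. With library totals, Siglech was at 0.014 and Tmem119 at 0.040, and with the upper quartile Tmem119 was at 0.0067, for genotype under Control ST. Each library left out gave, for genotype under Control ST, -0.035 to 0.087 (Serinc3), -0.081 to 0.053 (Siglech) and -0.094 to 0.049 (Tmem119). Under K/BxN ST it gave -0.49 to 0.20 (Fcrls), -0.54 to 0.10 (Olfml3), -0.20 to 0.23 (Serinc3), -0.28 to 0.30 (Siglech), -0.41 to 0.16 (Sparc) and -0.29 to 0.36 (Tmem119). For the interaction it gave -0.26 to 0.39 (Cx3cr1), -0.23 to 0.46 (Fcrls), -0.52 to 0.18 (Gpr34), -0.093 to 0.54 (Olfml3), -0.23 to 0.21 (Serinc3), -0.25 to 0.34 (Siglech), -0.26 to 0.31 (Sparc) and -0.28 to 0.36 (Tmem119). Pseudocounts of 0.5 and 10, the filters, robust limma, the trend and a fit on the groups compared alone turned no sign. Genes called over the whole table differed with the tool, 1 by limma, 0 by edgeR and 127 by DESeq2 for K/BxN ST in WT. No paired analysis was possible because the groups share no replicate numbers.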
